A study of Mus musculus with 3 samples.

Results

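The nuclear genes for the subunits of oxidative phosphorylation were followed through single cells of injured mouse brain. A gene was a member when its symbol began with Ndufa, Ndufb, Ndufc, Ndufs, Ndufv, Uqcr, Cox4 to Cox8 or Atp5, without the Ndufaf assembly factors and without pseudogenes named as such. This gave 88 of the 55357 genes in the files, under 87 symbols, because Atp5o is listed under 2 identifiers. By symbol, 43 belong to complex I, 8 to complex III, 19 to complex IV and 18 to complex V. Ndufa4 and Ndufa4l2 are counted with complex I by their symbols, although Ndufa4 is known as a subunit of complex IV. The inhibitor of ATP synthase is listed as Atpif1 and lies outside the rule.

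The cells were taken from the tissue around the lesion, on the left side of the brain, in C57BL/6 male mice aged 6 to 8 weeks. There was 1 library each from sham mice (Sham), from mice with traumatic brain injury given phosphate-buffered saline for 3 days (TBI+PBS) and from mice with the injury given interleukin-25 (TBI+IL-25). Interleukin-25 is a cytokine that acts on type 2 immune cells, and the dose was 1 µg per mouse no later than 30 min after injury and then daily for 3 days. The comparisons address how the transcriptome of brain cells differed after injury and after injury with the cytokine. Per the protocols in the labels, collagenases and a neutral protease dissociated the tissue, and red cells and dead cells were taken out ahead of droplet loading. The labels do not give the number of animals in a library.

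Oxidative phosphorylation makes most of the ATP of resting cells. Complex I takes electrons from NADH, complex III passes them to cytochrome c, complex IV hands them to oxygen, and the proton gradient they build drives complex V, the ATP synthase. Each of these complexes joins subunits from nuclear genes with a few encoded in mitochondrial DNA. Several complex IV subunits have tissue-specific nuclear isoforms, and the c-ring peptide of complex V is made by several nuclear genes. In brain, ion-transporting epithelia such as the choroid plexus are rich in mitochondria, while activated microglia are known for a metabolic shift that includes glycolysis.

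Transcription of many of these genes is known to use the factors NRF1, GABP (an ETS factor), YY1 and the oestrogen-related receptors. Promoter windows from 250 bases before to 50 after the start were read from RefSeq for the GRCm38.p6 build, and 67 of the 87 symbols had one. The NRF1 core CGCATGCG, which is its own reverse complement, was in 9 of them (13.4%) against 2.07% of 27025 genes with a window. The ETS motif CCGGAAG was in 15 (22.4% against 9.93%), the YY1 motif AAGATGGCG in 7 (10.4% against 1.64%) and the motif AAGGTCA of the oestrogen-related receptors in 7 (10.4% against 5.38%). The hypoxia response core ACGTG was in 17 (25.4% against 21.8%). Both strands were searched, and a match describes letters in the window and no binding. The windows below belong to the member with the most counts (Cox8a), to its paralogue of choroid plexus-like cells (Cox8b), and to Cox6a1 and Atp5g1, picked after their values were seen as members that were higher in both injured libraries in microglia-like cells. They lie on the minus strand at chr19:7217567-7217866, chr7:140900397-140900696, chr5:115348909-115349208 and chr11:96075582-96075881 in that order. They are written 5′ to 3′ along each gene, and capitals mark the motif matches.
Cox8a: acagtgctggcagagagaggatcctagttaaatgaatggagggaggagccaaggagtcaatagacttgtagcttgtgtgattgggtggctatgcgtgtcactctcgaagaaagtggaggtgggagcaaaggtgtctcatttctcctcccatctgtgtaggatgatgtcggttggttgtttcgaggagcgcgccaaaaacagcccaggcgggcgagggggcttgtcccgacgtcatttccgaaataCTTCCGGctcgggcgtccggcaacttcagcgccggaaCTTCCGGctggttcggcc
Cox8b: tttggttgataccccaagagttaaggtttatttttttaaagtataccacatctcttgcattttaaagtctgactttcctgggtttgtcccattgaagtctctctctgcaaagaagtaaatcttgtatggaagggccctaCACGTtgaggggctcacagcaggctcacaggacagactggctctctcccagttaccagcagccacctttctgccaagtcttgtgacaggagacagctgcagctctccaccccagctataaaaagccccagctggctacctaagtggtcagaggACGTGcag
Cox6a1: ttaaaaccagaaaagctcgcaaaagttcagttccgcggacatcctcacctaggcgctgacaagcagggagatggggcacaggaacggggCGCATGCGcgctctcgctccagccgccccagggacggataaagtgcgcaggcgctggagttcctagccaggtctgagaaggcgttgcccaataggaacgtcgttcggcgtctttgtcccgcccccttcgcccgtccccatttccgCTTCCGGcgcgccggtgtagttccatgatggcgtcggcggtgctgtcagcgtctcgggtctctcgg
Atp5g1: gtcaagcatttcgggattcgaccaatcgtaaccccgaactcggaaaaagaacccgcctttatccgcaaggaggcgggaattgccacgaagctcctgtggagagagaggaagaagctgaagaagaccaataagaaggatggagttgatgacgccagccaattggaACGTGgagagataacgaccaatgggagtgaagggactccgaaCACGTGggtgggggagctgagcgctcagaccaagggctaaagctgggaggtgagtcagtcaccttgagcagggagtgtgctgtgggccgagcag

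Cox8a holds 2 ETS matches and none of the other motifs. The Cox8b window has neither an ETS nor an NRF1 match and 2 matches of the hypoxia core. Cox6a1 holds 1 NRF1 and 1 ETS match. Atp5g1 holds 3 matches of the hypoxia core, of which 2 overlap within a single palindrome, and no ETS or NRF1 match. No expression value bears on whether any of these letters is used.

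The deposited tables hold raw counts of unique molecular identifiers (UMIs), each UMI standing for 1 captured transcript end. The libraries held 39536447 UMIs over 8939 barcodes (Sham), 58148289 over 10643 (TBI+PBS) and 61372408 over 14222 (TBI+IL-25), of which 8699, 10301 and 13531 cells were kept with medians of 4109, 4666 and 3840 UMIs. Between 24 and 39 barcodes were shared by any pair of libraries. The TBI+IL-25 library stood apart in ribosomal RNA: Rn18s-rs5 was at 7986 counts per 1000000 UMIs (CPM) against 362 and 441, and the mitochondrial ribosomal RNAs were at 12295 against 1367 and 1564. With 1 library per group no p-value can be given. Intervals are exact 95% intervals for counting error only, and every difference below is between libraries and cannot be told apart from differences between animals or preparations. In such sums, less RNA per cell and fewer cells in a given state cannot be told apart.

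Of the 88 members, 82 had at least 50 UMIs over all kept cells. The 6 others were Cox8c and Ndufb11b with 0 UMIs, the second Atp5o identifier with 3, Ndufa11b with 10, Ndufs6b with 15 and Cox6c2 with 26. The most UMIs were counted for Cox8a (109927), a small subunit of complex IV, then Ndufa4 (88914), Cox4i1 (87805), which is the regulatory subunit of complex IV, Ndufc2 (61841) of complex I and Cox5a (59306) of complex IV. Pseudogenes that carry a member's name held at most 3.14% of the parent's UMIs (Ndufa12-ps) under the authors' counting.

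Cells were grouped in 26 clusters, with the members left out of the clustering genes, and 24 clusters were named by marker genes as 12 classes, each written as "-like". Choroid plexus-like cells, the secretory epithelium of the ventricles, gave the members the largest share of their UMIs, 5.94% in Sham (44 cells), 6.10% in TBI+PBS (67 cells) and 5.36% in TBI+IL-25 (117 cells). Neuroblast-like cells were at 2.08%, 2.03% and 2.32%. Astrocyte-like cells were at 1.92%, 1.73% and 1.78%, oligodendrocyte-like cells at 1.76%, 1.70% and 1.66%, and endothelial-like cells at 1.67%, 1.71% and 1.64%.

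Microglia-like cells were lowest of the classes with at least 20 cells in Sham, at 0.828% (0.824% to 0.832%). The share was 1.22% (1.22% to 1.23%) in TBI+PBS and 1.42% (1.42% to 1.43%) in TBI+IL-25. In those injured libraries B cell-like cells stood at 1.30% and 1.36%, and neutrophil-like cells at 0.972% in TBI+IL-25. Monocyte/macrophage-like cells, which numbered 10 in Sham, were at 1.75% and 1.93%.

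The unnamed cluster 6 was shallow, held 0, 500 and 1207 cells and gave the members 3.14% and 3.04% in the injured libraries. All 12 astrocyte markers were present in it, but none was among its leading genes, so it is left out of the astrocyte-like sums. This affects the injured libraries only, while the similarly shallow cluster 9 (611, 570 and 334 cells) was kept as astrocyte-like. Cluster 9 gave the members 4.08%, 3.70% and 3.66%. At resolution 0.5 a shallow cluster of 607, 1063 and 1541 cells was named astrocyte-like. The unnamed cluster 25 (5, 22 and 22 cells) was led by Higd1b, Myh11, Rgs5 and Acta2, and its members' share was 1.87% and 1.86% in the injured libraries. All 9 markers on the pericyte list had UMIs in it, with a summed level of 10903, 12661 and 15400 CPM.

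**Figure D1:**
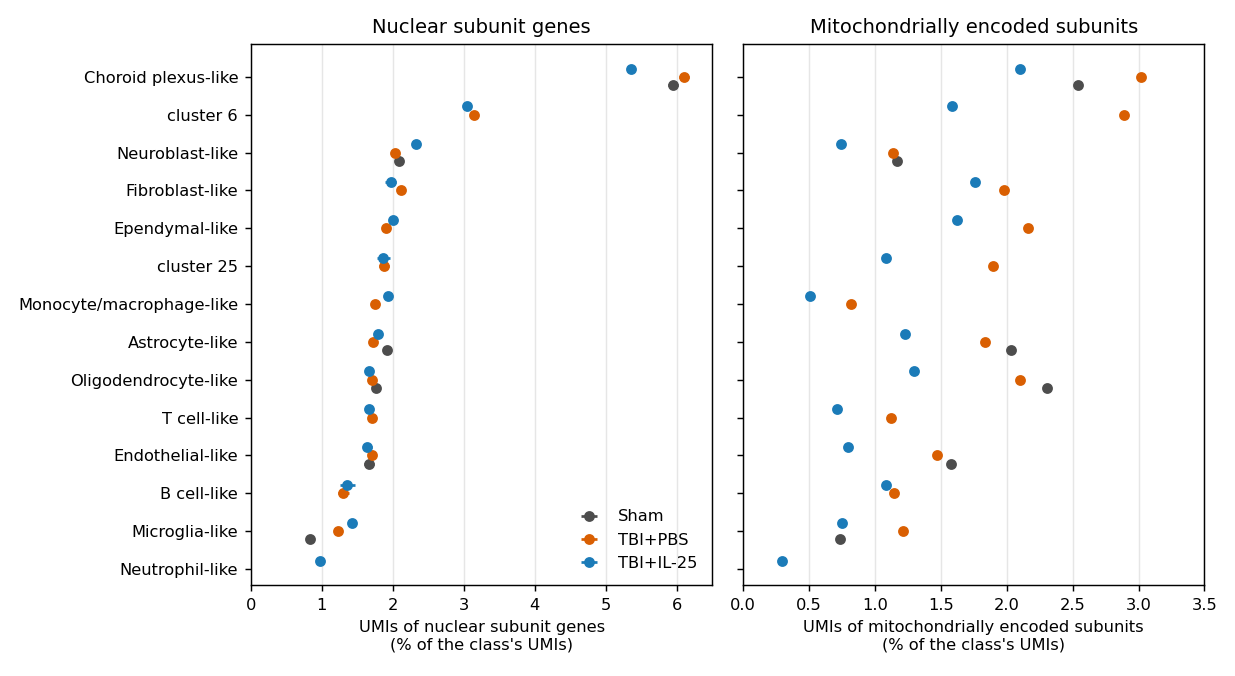
Share of a class's UMIs held by the nuclear subunit genes (left) and by the 13 mitochondrially encoded subunits (right), in percent, for each class with at least 20 cells in a library. Points are libraries and bars are exact 95% intervals for counting error. Choroid plexus-like cells lie between 5.36% and 6.10% on the left, and the microglia-like points run from 0.828% in Sham to 1.42% in TBI+IL-25.

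In choroid plexus-like cells 68 members had their highest level of any class with at least 20 cells, in all 3 libraries. In Sham only astrocyte-, choroid plexus-, endothelial-, microglia-, neuroblast- and oligodendrocyte-like cells reached that number. The same count over all genes was not made. The median member was 3.97, 3.48 and 2.91 times as high there as in all other cells of the same library, beside 0.401, 0.416 and 0.501 for the median of all measured genes. Summed mitochondrially encoded subunits were 1.93, 2.02 and 2.14 times as high, and cytosolic ribosomal proteins 1.32, 0.920 and 0.736 times, the last of which falls on the other side of 1 in the injured libraries. By complex, complex I was at 19633, 20114 and 19502 CPM, complex III at 7331, 7602 and 6125, complex IV at 15190, 15845 and 13895, and complex V at 17271, 17433 and 14037. These numbers are highest in TBI+PBS for each complex, and lowest in TBI+IL-25. Since the class was defined by clustering, its levels are a description. The other cells it was set against are a mix that differs between libraries. Microglia-like cells, whose own share of members differed, were the largest class (57.4%, 44.6% and 40.9% of kept cells). The part of this mix in the ratios was not tested.

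Among members at 4 or more times the median class in every library, choroid plexus-like cells held 10. Ndufa4 stood at 2761, 2915 and 3378 CPM and Atp5g1, a gene for the c-ring of ATP synthase, at 2467, 2233 and 2108. Ndufa1, a small complex I subunit, was at 730, 719 and 737. Uqcr11 (1397, 1440 and 1147) and Uqcr10 (1349, 1483 and 1145) are small subunits of complex III. Ndufa11 was at 1056, 1076 and 885 and Ndufv3, an accessory subunit of the NADH-binding module, at 885, 767 and 586. The remaining 3 were the isoforms Cox6b2, Cox7a1 and Cox8b, described further down. Ndufv3 was lower in each injured library than in Sham, whereas Ndufa4 was higher in each.

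Between TBI+PBS and Sham, microglia-like cells of the injured library had higher levels of most members in all complexes. The summed level of complex I was 3300 CPM in Sham and 4439 in TBI+PBS, of complex III 908 and 1338, of complex IV 1871 and 2849, and of complex V 2197 and 3582. The ratios were 1.34 (1.33 to 1.36), 1.47 (1.45 to 1.5), 1.52 (1.5 to 1.54) and 1.63 (1.61 to 1.65). All members together were 1.48 times as high (1.47 to 1.48). Most Sham microglia-like cells were in clusters 0 and 1 (3006 and 1654 of 4991), while the largest clusters of TBI+PBS were 2 and 1 (1385 and 1322 of 4590).

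A gene counted as measured with at least 50 UMIs over both libraries of the class, and as passing with a ratio of at least 1.5 in either direction and an interval that did not cross 1. Of 77 members measured, 74 had a ratio above 1 and 31 passed as higher, where 12.4% of all measured genes did. None passed as lower, beside 18.1% of all genes. The count of 31 was 48 with median-of-ratios scaling and 15 within cluster 1 alone. Under such alternatives, here and below, the share of all genes passing was not computed. The median log2 ratio was 0.52 over members and -0.14 over all genes. By complex, 9 of 39 passed for complex I (median 0.41), 3 of 8 for III (0.51), 8 of 13 for IV (0.70) and 11 of 17 for V (0.68).

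The largest ratio was that of Cox6a2, the isoform of subunit 6a known from heart and skeletal muscle. It stood at 7.15 CPM in Sham, 28.3 CPM in TBI+PBS and 42.5 CPM in TBI+IL-25, so that TBI+PBS was 3.95 times Sham (3.29 to 4.77). Cox7b, a small complex IV subunit, was at 79.1, 181 and 270 CPM, and TBI+PBS was 2.29 times Sham (2.16 to 2.43). Both injured libraries lay above Sham for each of these genes, with TBI+IL-25 the highest. Atp5g1 was at 123, 281 and 373 CPM, again 2.29 times Sham in TBI+PBS (2.18 to 2.40). Uqcrq, a small subunit of complex III, was at 104, 212 and 244 CPM (2.03, 1.92 to 2.13).

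Atp5b, picked after its value was seen and known as the catalytic beta subunit of ATP synthase, was at 211, 402 and 366 CPM, a TBI+PBS to Sham ratio of 1.90 (1.84 to 1.97), and was slightly lower in TBI+IL-25 than in TBI+PBS. Cox5a was at 139, 266 and 310 CPM, with a ratio of 1.91 (1.82 to 1.99). Cox6a1, the widely expressed partner isoform of Cox6a2, was at 87.9, 158 and 215 CPM (1.8, 1.7 to 1.91). The abundant Cox4i1 (372, 504 and 650 CPM) and Cox8a (302, 438 and 566 CPM) had smaller ratios of 1.35 and 1.45 and did not pass. Ndufc2 was at 232, 237 and 316 CPM, close to level between Sham and TBI+PBS.

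The lowest ratios between TBI+PBS and Sham belonged to Ndufb4c, Cox7a2l and Ndufb4. Ndufb4c was at 3.53, 2.75 and 3.00 CPM, with a ratio of 0.779 whose interval held 1 (0.550 to 1.10). Cox7a2l, counted with complex IV by its symbol, was at 152, 125 and 165 CPM (0.821, 0.781 to 0.864). Ndufb4 was at 33.8, 29.9 and 26.6 CPM (0.885, 0.796 to 0.984). None of these reached the 1.5-fold rule.

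Between TBI+IL-25 and TBI+PBS, the microglia-like summed level was 1.17 times as high (1.16 to 1.17), and fewer members differed. The ratio was 1.20 for complex I, 1.08 for III, 1.27 for IV and 1.08 for V. Of 78 members measured, 55 were above 1. As higher 8 passed, beside 9.38% of all genes, and as lower 2, beside 13.8%, so the share passing as higher was near that of all genes. The count of 8 was 40 within cluster 1 alone, which had the highest summed ratio of the 7 clusters compared (1.51, against 1.03 to 1.19 in the other 6). It was 14 with cells weighed equally and 4 with cells of at least 2000 UMIs. The median log2 ratio was 0.21, against -0.08 for all genes.

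The 8 higher members were Ndufb3, Ndufa1, Ndufab1 and Ndufa4 by complex I symbols, Uqcrh of complex III, Cox6a2 and Cox7a1 of complex IV, and Atp5g3 of complex V. Atp5g3, a c-ring gene, was at 68.6, 117 and 200 CPM, and TBI+IL-25 was 1.71 times TBI+PBS (1.63 to 1.78). Ndufb3 was at 79.6, 85.3 and 144 CPM, so that Sham and TBI+PBS were close and TBI+IL-25 stood above both (1.69, 1.60 to 1.78). Cox7a1, a muscle isoform, had 10, 38 and 93 UMIs (0.511, 1.51 and 3.32 CPM), and its ratio of 2.20 (1.49 to 3.30) rests on these few counts.

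The 2 lower members were Uqcrc1, a core protein of complex III, and Atp5g2, also a c-ring gene. Uqcrc1 was at 98.2, 135 and 75.6 CPM, with TBI+IL-25 at 0.560 of TBI+PBS (0.530 to 0.591) and below Sham as well. Atp5g2 was at 18.3, 24.6 and 14.5 CPM (0.590, 0.519 to 0.670). Uqcrc2, the other core protein, was at 103, 134 and 97.1 CPM (0.726, 0.690 to 0.764) and did not pass. For these 3 genes TBI+PBS was the highest library and TBI+IL-25 the lowest.

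Against Sham, TBI+IL-25 microglia-like cells had a summed level 1.72 times as high (1.71 to 1.73). This comparison shares the Sham library with the first and the TBI+IL-25 library with the second, so it is no separate evidence. The ratio was 1.61 for complex I, 1.59 for III, 1.93 for IV and 1.76 for V. Of 78 members, 68 were above 1 and 52 passed as higher, beside 17.2% of all genes, while none passed as lower, beside 29.7%. The median log2 ratio was 0.77, against -0.21 for all genes. The numbers passing were 22 of 39 for complex I, 5 of 8 for III, 13 of 14 for IV and 12 of 17 for V. The largest ratios were those of Cox7a1 (6.51, 3.38 to 14.0), Cox6a2 (5.95, 4.99 to 7.14) and Cox7b (3.42, 3.24 to 3.61). The smallest were those of Uqcrc1 (0.770, 0.723 to 0.819), Ndufb4 (0.785, 0.706 to 0.873) and Atp5g2 (0.789, 0.683 to 0.912). Ndufa4 was at 215, 396 and 597 CPM, a ratio of 2.78 (2.69 to 2.88).

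**Figure D2:**
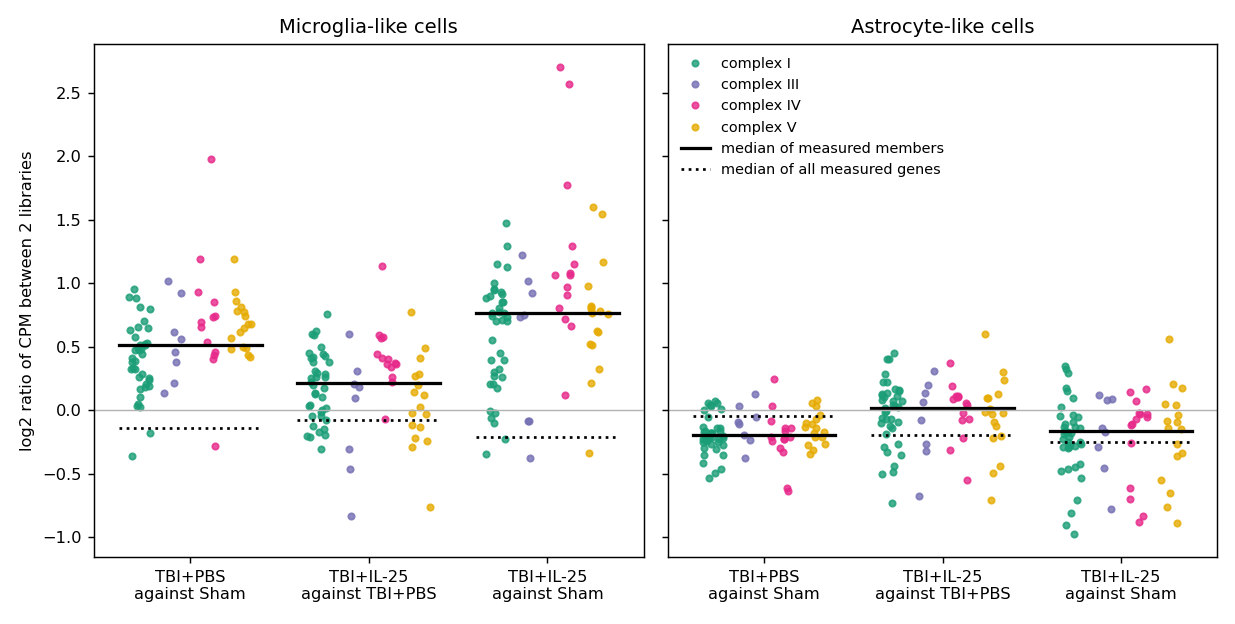
Log2 ratio of CPM between 2 libraries for each measured member in microglia-like (left) and astrocyte-like cells (right), coloured by complex. Solid lines are medians over members and dotted lines medians over all measured genes. In microglia-like cells the member medians are 0.52, 0.21 and 0.77 above all-gene medians below 0, and in astrocyte-like cells they are -0.19, 0.02 and -0.16, where the last becomes positive with median-of-ratios scaling.

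In astrocyte-like cells, which leave out cluster 6 of the injured libraries, the members were slightly lower in TBI+PBS than in Sham. In the order Sham, TBI+PBS and TBI+IL-25, complex I was at 7452, 6640 and 6979 CPM, complex III at 2209, 1991 and 2002, complex IV at 4761, 4271 and 4448, and complex V at 4780, 4364 and 4419. For each complex Sham was the highest library and TBI+PBS the lowest. The sum of all members was 0.899 of Sham in TBI+PBS (0.895 to 0.904). Of 79 members measured, 14 were above 1, none passed as higher (12.1% of all genes) and 2 passed as lower (13.1%). The median log2 ratio was -0.19, against -0.04 for all genes. The largest clusters were 5 and 3 in Sham (1478 and 940 of 3273 cells), 3 and 10 in TBI+PBS (1191 and 1121 of 4022) and 4 and 3 in TBI+IL-25 (2757 and 928 of 5477).

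The 2 lower members were complex IV isoforms. Cox6b2, known as the testis isoform of subunit 6b, was at 24.3, 15.6 and 14.9 CPM, a TBI+PBS to Sham ratio of 0.643 (0.551 to 0.75). Within astrocyte-like cluster 3 alone it was level (26.4, 26.7 and 26.4 CPM), with a ratio of 1.01, and within cluster 5 it was at 22.7, 12.3 and 25.4 CPM. Cox7a1 was at 6.80, 4.43 and 3.81 CPM (0.652, 0.485 to 0.876). The lowest ratio below these was that of Ndufb4, at 75.6, 52.2 and 38.4 CPM (0.691, 0.634 to 0.752). The highest were those of Cox5a, at 493, 585 and 554 CPM (1.19, 1.15 to 1.22), Uqcrc2, at 154, 168 and 140 CPM (1.09), and Atp5g1, at 216, 228 and 244 CPM (1.05).

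Between TBI+IL-25 and TBI+PBS, astrocyte-like cells had a summed level of 1.03 times (1.03 to 1.04). Of 79 members 41 were above 1. As higher 1 passed, beside 9.05% of all genes, and as lower 3, beside 24.9%. With median-of-ratios scaling these were 4 and 0, and with cells weighed equally 0 and 6, where the sum was 0.966. The higher member was Atp5g3, at 211, 205 and 311 CPM (1.51, 1.46 to 1.58). The lower members were Ndufv3 (131, 116 and 70.005 CPM; 0.602, 0.563 to 0.643), Atp5g2 (20.9, 18.5 and 11.3 CPM; 0.611, 0.517 to 0.722) and Uqcrc1 (143, 134 and 83.4 CPM; 0.624, 0.587 to 0.664). Atp5g3 was thus higher, and Uqcrc1 and Atp5g2 lower, in TBI+IL-25 than in TBI+PBS in both large classes. The next highest ratios were those of Ndufb3 (1.37, 1.30 to 1.44) and of Ndufa4, at 646, 622 and 822 CPM (1.32, 1.29 to 1.35).

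Against Sham, the astrocyte-like sum in TBI+IL-25 was 0.930 (0.925 to 0.934) and the median log2 ratio -0.16, against -0.25 for all genes. With median-of-ratios scaling the same sum was 1.11 and the median 0.092, so the direction depends on the scaling. No member passed as higher, beside 18.4% of all genes, and 12 passed as lower, beside 34.5%. Median-of-ratios scaling gave 2 and 4, and cluster 3 alone gave 5 and 0. The lowest ratios were those of Ndufb4 (0.508, 0.463 to 0.557), Ndufv3 (0.535, 0.499 to 0.573) and Atp5g2 (0.539, 0.453 to 0.641). The highest were those of Atp5g3 (1.47, 1.41 to 1.54), Ndufa4 (1.27, 1.24 to 1.31) and Ndufb5, at 168, 173 and 211 CPM (1.251, 1.19 to 1.31).

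The c-ring of ATP synthase is built from 1 peptide made by 3 genes, Atp5g1, Atp5g2 and Atp5g3, which differ in their import sequences. In microglia-like cells Atp5g1 gave 58.5%, 66.4% and 63.4% of their UMIs in Sham, TBI+PBS and TBI+IL-25. In astrocyte-like cells it gave 48.2%, 50.5% and 43.1%, and in choroid plexus-like cells 73.4%, 72.1% and 67.5%. The share of Atp5g2 was lowest in TBI+IL-25 in each of these classes, at 8.75%, 5.81% and 2.46% in microglia-like, 4.67%, 4.09% and 2.00% in astrocyte-like and 1.22%, 0.840% and 0.430% in choroid plexus-like cells. Atp5g3 gave 32.7%, 27.8% and 34.1% in microglia-like cells and 47.1%, 45.4% and 55.0% in astrocyte-like cells.

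Within 1 library, microglia-like cells had lower levels of most members than astrocyte-like cells. The ratio was below 1 for 76, 66 and 59 of the 79 members measured in all libraries, and the median member stood at 0.447, 0.697 and 0.778 of its astrocyte-like level (all genes 0.939, 0.889 and 0.910). By the 1.5-fold rule 69, 34 and 20 members were lower and 2, 3 and 6 higher in the single libraries. The share of all genes was computed only for passing in all 3 libraries. In all 3 libraries 20 of the 79 were lower, beside 29.4% of all genes, and 2 were higher, beside 21.5%. The share passing as lower in all 3 was thus near, and slightly below, that of all genes. With median-of-ratios scaling 13 were lower, and within a single cluster of each class 8 were. The 20 were Ndufa5, Ndufa12, Ndufb2, Ndufb6, Ndufb9, Ndufc2, Ndufs1, Ndufs5, Ndufv2, Uqcr10, Uqcrfs1, Cox4i2, Cox5a, Cox6b2, Cox7c, Cox8a, Atp5g3, Atp5k, Atp5md and Atp5o. The 2 higher ones were Cox6a2, 35.1, 41.0 and 31.1 times its astrocyte-like level, and Cox7a2l, 1.92, 1.75 and 2.17 times. Uqcrfs1, the Rieske iron-sulfur protein of complex III, moved little between libraries, at 0.344, 0.390 and 0.395 of its astrocyte-like level.

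Astrocyte and microglia RNA in each other's class sets a floor for such values. All 12 astrocyte markers had UMIs in microglia-like cells, summing to 2.28%, 1.5% and 2.00% of their own level, and all 12 microglia markers had UMIs in astrocyte-like cells at 3.96%, 4.75% and 3.54%. Cox6a2 in astrocyte-like cells stood at 2.85%, 2.44% and 3.22% of its microglia-like level, at or under that background, and is not read as expression there. Monocyte and macrophage markers in microglia-like cells summed to 161, 286 and 396 CPM (9, 11 and 10 of 11 with UMIs), against 15145 and 14818 CPM in their own class in the injured libraries. Border-associated macrophage markers there summed to 12.1, 44.6 and 5.33 CPM. Their part in the member levels was not tested.

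The difference between libraries in microglia-like cells was also present inside clusters with at least 50 cells in both libraries. Against Sham, the summed members in TBI+PBS were 1.14 times in cluster 0, 1.29 in cluster 1, 1.2495 in cluster 2 and 1.37 in cluster 12, which is led by interferon genes such as Ifit2. These values are below the 1.48 of the whole class. In TBI+IL-25 against TBI+PBS they ran from 1.03 in cluster 16, led by cell cycle genes, to 1.51 in cluster 1, over 7 clusters. In TBI+IL-25 against Sham they were 1.35, 1.96, 1.48 and 1.56 in clusters 0, 1, 2 and 12. Cox6a2 itself stood at 6.11, 20.7 and 29.1 CPM in cluster 0, at 7.90, 25.7 and 46.8 in cluster 1, at 10.4, 32.0 and 37.0 in cluster 2 and at 9.55, 33.3 and 37.7 in cluster 12. Sham was the lowest library in each of them.

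In astrocyte-like cells the same comparison did not keep 1 direction. TBI+PBS against Sham gave 0.947, 0.967 and 0.905 in clusters 3, 5 and 9 and 1.07 in cluster 13. TBI+IL-25 against Sham gave 1.17, 1.06 and 1.16 in clusters 3, 5 and 13, above 1, and 0.897 in cluster 9, where the whole class was at 0.930. Cluster 9 was shallow, with a median UMI count 0.186 of its libraries' medians, and the share of the members there was the highest among astrocyte-like clusters in all 3 libraries.

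**Figure D3:**
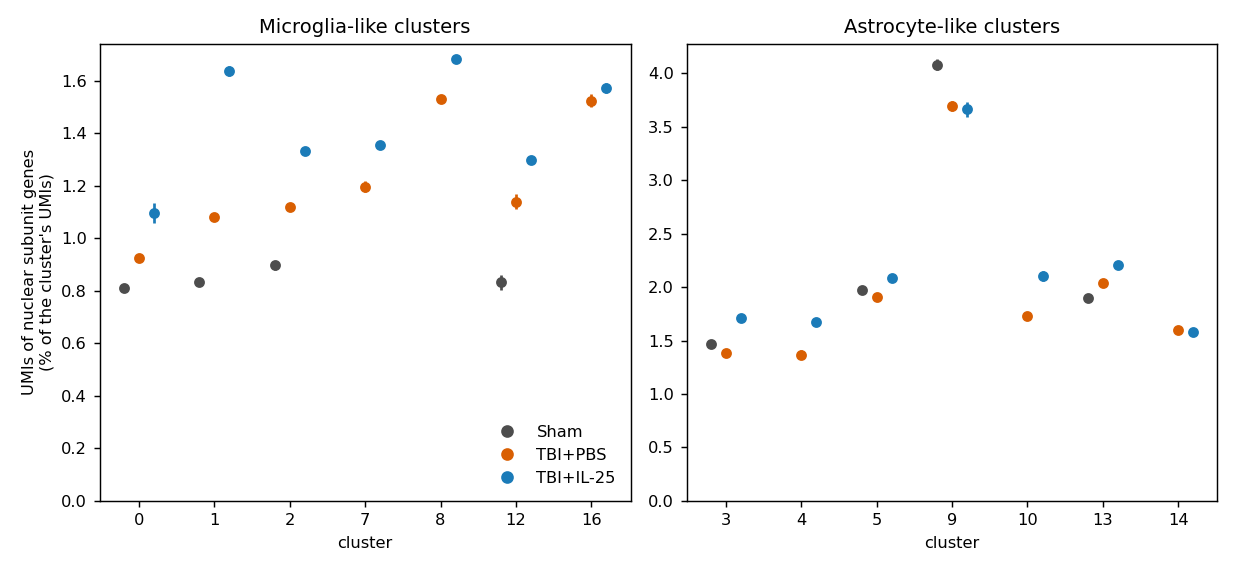
Share of UMIs held by the nuclear subunit genes, in percent, in each microglia-like (left) and astrocyte-like cluster (right) with at least 50 cells in a library. Points are libraries with exact 95% intervals for counting error. In every microglia-like cluster TBI+IL-25 lies above TBI+PBS and TBI+PBS above Sham where each is shown, and astrocyte-like cluster 9 stands apart near the top.

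Depth moved with the share in individual cells. The median microglia-like cell gave 0.794%, 1.06% and 1.36% of its UMIs to the members, and 0.8%, 1.1% and 1.3% after each cell was thinned to 1000 UMIs, which left out 95, 58 and 159 shallower cells. Between 4000 and 8000 UMIs the medians were 0.874%, 1.09% and 1.35%. Between 1000 and 2000 UMIs they were 0.353%, 0.416% and 2.44%, so shallow microglia-like cells of TBI+IL-25 differed from those of the other libraries more than deep ones did. Astrocyte-like cells between 500 and 1000 UMIs had medians of 3.80%, 3.56% and 3.26%, against 1.81%, 1.64% and 1.74% between 4000 and 8000. The part of depth in the library differences was not tested.

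Isoform pairs split by cell class. The share of a paralogue is its UMIs over those of the pair, each UMI counting 1 transcript end and not divided by length. Cox8b, known from muscle and brown fat, was highest in choroid plexus-like cells, where it was among the leading genes of the cluster, at 227, 325 and 285 CPM (105, 175 and 319 UMIs), and gave 6.05%, 8.23% and 8.16% of the Cox8a and Cox8b UMIs there. In astrocyte-like cells it was at 1.56, 0.493 and 0.0978 CPM. Choroid plexus markers in astrocyte-like cells summed to 94.3, 109 and 85.1 CPM, against 288611, 263777 and 276410 in their own class.

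Cox6b2 gave 18.3%, 16.2% and 21.3% of its pair with Cox6b1 in choroid plexus-like cells (194, 175 and 232 CPM). It gave 6.80%, 5.15% and 4.35% in astrocyte-like and 0.693%, 0.583% and 0.649% in microglia-like cells. Cox7a1 gave 6.03%, 8.59% and 4.21% of its pair with Cox7a2 in choroid plexus-like cells (73.4, 115 and 49.2 CPM), and 1.88%, 1.36% and 1.09% in astrocyte-like cells. In microglia-like cells its share was 0.427%, 0.776% and 1.32%. Among these classes, the order from choroid plexus-like through astrocyte-like to microglia-like cells held for both pairs in Sham and TBI+PBS. For Cox7a1 the last 2 changed places in TBI+IL-25. Fibroblast-like cells had Cox6b2 at 11.5% and 10.1% in the injured libraries (52.5 and 49.5 CPM, on 13 and 7 UMIs). Ependymal-like cells had Cox7a1 at 5.52% and 2.48% there (20.1 and 10.9 CPM, on 8 and 4 UMIs). The 15 Sham cells of that class had it at 12.9%, on 15 UMIs.

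Among classes with at least 20 cells, Cox6a2 was highest in microglia-like cells in Sham and TBI+IL-25. In TBI+PBS it was highest in monocyte/macrophage-like cells. Its share of the pair with Cox6a1 in microglia-like cells was 7.53% in Sham (6.37% to 8.82%), 15.1% in TBI+PBS (14.1% to 16.2%) and 16.5% in TBI+IL-25 (15.7% to 17.4%). Monocyte/macrophage-like cells gave 18.7% in TBI+PBS (15.8% to 22.0%, 119 Cox6a2 UMIs) and 2.84% in TBI+IL-25 (0.778% to 7.1%, 4 UMIs). The border-associated macrophage markers in that class summed to 2570 and 905 CPM in the same libraries, and microglia markers to 3227 and 4135, and their part in the difference was not tested. Astrocyte-like cells were at 0.114%, 0.408% and 0.776%. T cell-like cells gave 10.0% in TBI+PBS (4.12% to 19.5%), on 7 UMIs, and had 0 UMIs in TBI+IL-25. Neutrophil-like cells had 0 and 1 UMIs in the injured libraries.

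Cox4i2 and Ndufa4l2, both known as hypoxia-linked isoforms of vascular wall cells, were highest in cluster 25. Cox4i2 gave 36.1% and 39.0% of its pair with Cox4i1 there in the injured libraries (56 and 41 UMIs, 370 and 498 CPM), and 14 UMIs in the 5 Sham cells. In astrocyte-like cells it gave 2.34%, 2.67% and 2.56%, at 13.3, 13.6 and 14.0 CPM, with no order between libraries beyond counting error. Ndufa4l2 gave 61.1% and 56.5% of its pair with Ndufa4 in cluster 25 (99 and 52 UMIs, 655 and 632 CPM). Fibroblast-like cells had it at 36.3 and 28.3 CPM in the injured libraries, on 9 and 4 UMIs, and endothelial-like cells at 15.4, 11.1 and 11.3 CPM, on 2, 11 and 2 UMIs. Monocyte/macrophage-like cells had 1 and 8 UMIs in the injured libraries. Endothelial markers in cluster 25 summed to 11470 and 9133 CPM in the injured libraries, against 26311 and 20429 in their own class. Cox7b2 was at 4.15, 3.30 and 2.25 CPM in astrocyte-like cells and at 6.16 and 6.77 CPM in cluster 6 of the injured libraries, where it had 12 UMIs in all.

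**Figure D4:**
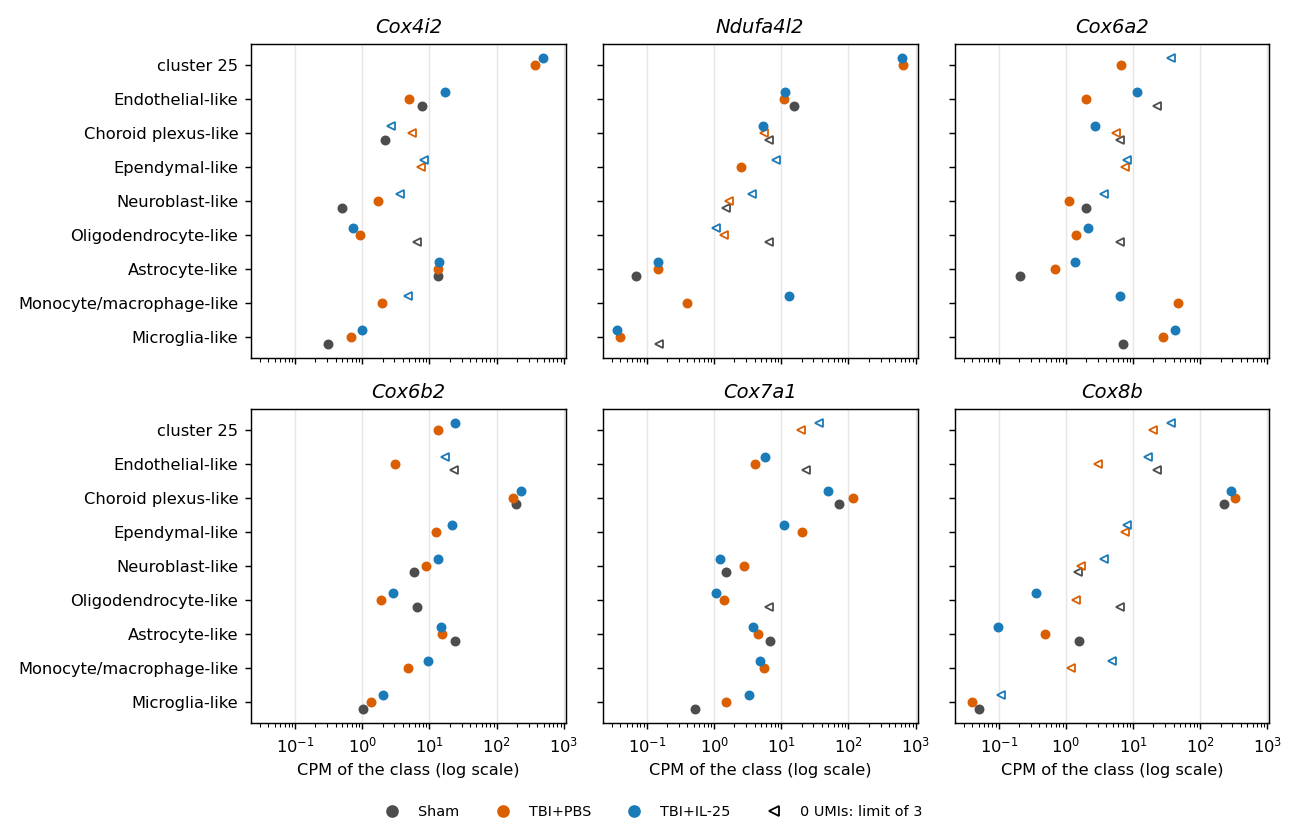
CPM (log scale) of 6 tissue-specific isoforms by library in selected classes, drawn where a class had at least 20 cells. Fibroblast-, T cell-, B cell- and neutrophil-like cells and cluster 6 are not drawn. Open triangles are the limit that 0 UMIs allows, 3 UMIs over the class total. Cox4i2 and Ndufa4l2 are highest in cluster 25, Cox6b2, Cox7a1 and Cox8b in choroid plexus-like cells, and Cox6a2 in microglia-like and, in TBI+PBS, monocyte/macrophage-like cells.

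The mitochondrially encoded partners differed between TBI+PBS and Sham in the same direction as the nuclear members, and were lower in TBI+IL-25 than in TBI+PBS, where the nuclear sum was 1.17 times in microglia-like and 1.03 times in astrocyte-like cells (0.966 with cells weighed equally). In microglia-like cells they held 0.737%, 1.22% and 0.751% of UMIs, 1.65 times Sham in TBI+PBS (1.64 to 1.66) but 0.618 of TBI+PBS in TBI+IL-25 (0.615 to 0.622). In astrocyte-like cells they held 2.03%, 1.84% and 1.23%, so that TBI+PBS was 0.904 of Sham (0.899 to 0.908) and TBI+IL-25 was 0.670 of TBI+PBS (0.667 to 0.673). The ratio of nuclear to mitochondrially encoded UMIs was therefore 1.12, 1.00 and 1.89 in microglia-like, 0.944, 0.939 and 1.45 in astrocyte-like and 2.34, 2.02 and 2.55 in choroid plexus-like cells, highest in TBI+IL-25 in each. Single transcripts differed in direction: in microglia-like cells mt-Nd3 was at 149, 292 and 74.9 CPM while mt-Nd5 was at 148, 208 and 311 and mt-Nd6 at 18.0, 30.3 and 58.9. In TBI+IL-25 against TBI+PBS, 1 of the 13 passed as higher and 6 as lower in microglia-like cells, beside 9.38% and 13.8% of all genes. In astrocyte-like cells 3 and 6 did, beside 9.05% and 24.9%. Cells with over 20% mitochondrial UMIs had been removed, and TBI+IL-25 is also the library with the most mitochondrial ribosomal RNA, whose part was not tested.

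Other parts of the pathway were read from lists in microglia-like cells, for TBI+PBS against Sham, where 12.4% of all genes passed as higher and 18.1% as lower. A list of 6 held Sdha, Sdhb, Sdhc and Sdhd of complex II, cytochrome c (Cycs) and cytochrome c1 (Cyc1). Cyc1 is a subunit of complex III that the symbol rule leaves out. Of these, 1 of 6 passed as higher, which was Cycs, the electron carrier itself, at 76.7, 151 and 178 CPM. Among assembly factors 5 of 40 did (12.5%, near the share of all genes), with a median log2 ratio of 0.13, including Uqcc2 (54.1, 101 and 122 CPM), a complex III assembly factor, and Higd1a (54.0, 93.5 and 118). Of pyruvate dehydrogenase and citrate cycle genes 3 of 16 did (18.8%). None of these 3 lists had a member that passed as lower.

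Glycolysis genes moved further, with 14 of 20 higher (70%) and 1 lower and a median log2 ratio of 0.96. Pkm, a pyruvate kinase, was at 175, 810 and 595 CPM and Ldha, which makes lactate, at 146, 499 and 484. Cytosolic ribosomal proteins were higher in 51 of 87 (58.6%) and lower in 1, with a median of 0.65. Mitochondrial ribosomal proteins were higher in 11 of 77 (14.3%, near the 12.4% of all genes), with a median of 0.39. Regulators of mitochondrial biogenesis had 0 of 8 passing in either direction, with a median of -0.21, and Nrf1 stood at 45.6, 32.4 and 21.7 CPM and Esrra at 58.8, 50.4 and 32.4.

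In astrocyte-like cells the same comparison gave 8 of 20 glycolysis genes higher (median 0.32) and 26 of 85 cytosolic ribosomal proteins higher (median 0.47), against none of the nuclear members and 12.1% of all genes. Assembly factors had 1 of 40 higher and 5 lower (12.5%, near the 13.1% of all genes), and the regulators had none of 9 in either direction. In TBI+IL-25 against Sham, 5 of 9 regulators were lower and 1 higher, beside 34.5% and 18.4% of all genes, among them Ppargc1a at 147, 119 and 81.5 CPM and Esrra at 88.6, 65.2 and 31.7. The inhibitor gene Atpif1 was at 197, 303 and 361 CPM in microglia-like and 107, 81.1 and 75.8 CPM in astrocyte-like cells, higher than Sham in both injured libraries in the first and lower in the second.

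Within complex III, the core and the small subunits did not move alike in microglia-like cells. This grouping was made after the values were seen and is given as a description. For TBI+IL-25 against Sham, the ratios of Uqcrc1, Uqcrc2 and Uqcrfs1 lay between 0.770 and 0.944, and those of the 5 small subunits between 1.66 and 2.34, all of them passing as higher. In TBI+PBS against Sham the medians were 1.30 for the core and 1.53 for the others. In astrocyte-like cells the TBI+IL-25 to Sham medians were 0.819 and 1.06.

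Transcript length moved with this split. The median summed exon length was 2552 bases for the complex III core and 876 for its other members. Across 78 members, which share libraries and are not independent, Spearman's rho of length and log2 ratio in microglia-like cells was -0.36 for TBI+IL-25 against TBI+PBS, beside 0.02 across all genes. For TBI+IL-25 against Sham it was -0.25 (all genes -0.058), and for TBI+PBS against Sham -0.06 over 77 members (all genes -0.094). In astrocyte-like cells, over 79 members, it was -0.15, 0.018 and 0.30 in these 3 comparisons, the last of the opposite sign. Across all genes these astrocyte-like values were 0.078, 0.085 and 0.059. Lengths are from the GENCODE annotation of GRCm38, and the part of length in the ratios was not tested.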

How the data were processed

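Single cells from 3 libraries (Sham, TBI+PBS and TBI+IL-25, 1 per group) had been measured with a droplet 3′ kit. The deposited matrices hold raw UMI counts per gene and cell, made with Cell Ranger 7.1.0 (Sham and TBI+PBS) and 7.2.0 (TBI+IL-25), per the file headers. Per the submitters' processing notes, the build was GRCm39, and bcl2fastq 5.0.1 and Seurat 4.4.0 were also used. The differing versions and the split of reads between near-identical copies could change single values, and which reads were counted for introns is not given in the sources used here.

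A cell was kept if it had 500 or more UMIs, 300 or more genes and no more than 20% mitochondrial UMIs, and 222, 299 and 636 barcodes with a doublet score over 0.2 were removed. Counts were normalised per cell and log-transformed for clustering only, on 2000 variable genes without the members, 30 principal components and 15 neighbours, with Leiden clustering at resolution 1 (scanpy 1.11.5, leidenalg 0.10.2, Python 3.11.15). A cluster was named from marker lists when at least 3 markers were present and its 10 leading genes did not point elsewhere. A shallow cluster, with a median UMI count more than 3 times below its library's, also needed a marker among them.

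UMIs were summed per class and library and given as CPM. Ratios have exact conditional binomial intervals, levels exact Poisson and shares Clopper-Pearson intervals at 95%, with SciPy 1.17.1. These cover counting error only. With 1 library per group no test between groups could be made. By rule, the named members were the 5 with the most UMIs, those with the 3 highest and 3 lowest ratios in each comparison and large class, those passing between these classes, those at 4 or more times the median class, and the isoform pairs with 50 UMIs. Of other lists the 2 highest and 2 lowest could be named. Further members and Ldha were named after their values were seen, to give a count's members or a subunit's role. Scripts were tested on simulated data. The members and lists were chosen with earlier results of these data known. The alternatives covered scaling, filters, clustering, count minimums and folds. No column of per-sample values was left unused.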

Additional observations from a re-analysis of the deposited data

Results flagged for a closer look

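The nuclear subunit genes differed in direction between the 2 largest classes. For TBI+PBS against Sham, the summed level of all members was 1.48 times in microglia-like and 0.899 in astrocyte-like cells. By complex the ratios were 1.34 and 0.891 for complex I, 1.47 and 0.902 for III, 1.52 and 0.897 for IV, and 1.63 and 0.913 for V. For TBI+IL-25 against Sham they were 1.72 and 0.930 for all members, 1.61 and 0.937 for complex I, 1.59 and 0.906 for III, 1.93 and 0.934 for IV, and 1.76 and 0.924 for V. This last set of astrocyte-like values lies on the other side of 1 for all members with median-of-ratios scaling (1.11) and within clusters 3, 5 and 13. Both sets of astrocyte-like values leave out the shallow cluster 6, which held cells of the injured libraries only.

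A further 3 complex IV genes also passed the 1.5-fold rule in opposite directions for TBI+IL-25 against Sham. Cox5b was at 1.58 in microglia-like and 0.653 in astrocyte-like cells, Cox6b2 at 1.96 and 0.614, and Cox7a1 at 6.51 and 0.561. The lower astrocyte-like values of the last 2 genes were not seen in every cluster. Between Sham and TBI+IL-25, Cox6b2 was at 26.4 and 26.4 CPM in cluster 3, 22.7 and 25.4 in cluster 5, 15.5 and 25.4 in cluster 9 and 33.2 and 27.9 in cluster 13. Cox7a1 was at 6.13 and 6.48 CPM in cluster 3, 6.31 and 5.8 in cluster 5, 18.9 and 7.25 in cluster 9 and 6.79 and 3.01 in cluster 13, on 57 or fewer UMIs each. The cells of the class lay in different clusters in each library. The share of all genes with such opposite calls was not computed. Each direction rests on 1 library per group with Sham shared by both comparisons, and the difference between classes was not tested.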

How the results depend on the processing

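No paired analysis was possible because each group has 1 library, and for the same reason no replicate could be left out. The share of all genes passing was computed for the main setting only. The counts under alternatives below therefore cannot be set against all genes. The microglia-like median log2 ratio over members stayed positive under every alternative run on the class or on cluster 1, at 0.34 to 0.66 for TBI+PBS against Sham, 0.18 to 0.60 for TBI+IL-25 against TBI+PBS and 0.72 to 0.98 for TBI+IL-25 against Sham. Astrocyte-like medians ran from -0.22 to -0.12, -0.05 to 0.27 and -0.28 to 0.14. Only 1 cluster per class enters these ranges. In the other clusters compared, microglia-like medians were as low as 0.17 (cluster 0), 0.015 (cluster 16) and 0.41 (cluster 0), and the astrocyte-like median for TBI+PBS against Sham was -0.052 in cluster 5 and 0.053, of the opposite sign, in cluster 13. For TBI+IL-25 against TBI+PBS it was 0.31 in cluster 4.

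With median-of-ratios scaling, 48 microglia-like members were higher in TBI+PBS than in Sham. In astrocyte-like cells 1 was lower in TBI+PBS than in Sham, 4 were higher and 0 lower in TBI+IL-25 than in TBI+PBS, and 2 were higher and 4 lower in TBI+IL-25 than in Sham, where the median was 0.092 and the summed ratio 1.11. Members lower in microglia-like than astrocyte-like cells in all libraries numbered 13. With cells weighed equally, 14 microglia-like members were higher in TBI+IL-25 than in TBI+PBS. In astrocyte-like cells 1 was lower in TBI+PBS than in Sham, and 0 were higher and 6 lower in TBI+IL-25 than in TBI+PBS, with a median of -0.055 and a summed ratio of 0.966. In astrocyte-like cells 1 member was higher in TBI+IL-25 than in Sham with each of these: a total without mitochondrial, ribosomal RNA and haemoglobin genes, doublets kept, a per-cell marker score, resolution 0.5, no mitochondrial limit, no count minimum and, chosen after seeing the data, without shallow clusters and with at least 2000 UMIs per cell. At resolution 0.5 the change in the ratio of nuclear to mitochondrially encoded UMIs in astrocyte-like cells, TBI+PBS against Sham, was 1.00. With at least 2000 UMIs, 4 microglia-like members were higher in TBI+IL-25 than in TBI+PBS.

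Within single clusters (microglia-like 1, astrocyte-like 3), 15 microglia-like members were higher in TBI+PBS than in Sham, and 40 were higher and 1 lower in TBI+IL-25 than in TBI+PBS. In astrocyte-like cells 0 were lower in TBI+PBS than in Sham, with Cox6b2 at 1.01, 4 were higher and 0 lower in TBI+IL-25 than in TBI+PBS, and 5 were higher and 0 lower in TBI+IL-25 than in Sham, with a median of 0.14 and a summed ratio of 1.17. Between the classes 1 was higher and 8 lower. Without a count minimum 2 astrocyte-like members were higher in TBI+IL-25 than in TBI+PBS. With at least 200 UMIs 1 was lower in TBI+PBS than in Sham, and 1 was higher in microglia-like than astrocyte-like cells. When a ratio 25% above 1, or its inverse, was enough to pass, 59, 26 and 3 microglia-like members were higher in TBI+PBS than in Sham, higher in TBI+IL-25 than in TBI+PBS and lower in TBI+IL-25 than in Sham. Astrocyte-like counts were 9 lower, then 5 higher and 11 lower, then 3 higher and 20 lower. At 2-fold, 4, 1 and 18 microglia-like members were higher in the 3 comparisons and 0 lower in the second. In astrocyte-like cells 0 were lower in the 3 comparisons and 0 higher in the second. The cause of these shifts was not tested, beyond the stricter or looser fold. Depth limits Cox7a1 in microglia-like cells (10, 38 and 93 UMIs) and Cox6a2 in monocyte/macrophage-like cells of TBI+IL-25 (4 UMIs).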

Other observations

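AA467197, a paralogue of Ndufa4 that the symbol rule leaves out and that is known to be induced in inflamed cells, was abundant in monocyte/macrophage-like cells. It had 0 UMIs in the 10 Sham cells, 1159 in TBI+PBS (461 CPM) and 809 in TBI+IL-25 (1301 CPM). These made 58.8% (56.6% to 61.0%) and 75.9% (73.2% to 78.4%) of the UMIs of AA467197 and Ndufa4 together, with Ndufa4 at 811 and 257 UMIs. Neutrophil-like cells had it at 435 CPM in TBI+PBS (13 UMIs in 12 cells) and 422 CPM in TBI+IL-25 (49 UMIs). These made 56.5% (34.5% to 76.8%) and 55.1% (44.1% to 65.6%) of the pair. Endothelial-like cells had it at 28.2 and 124 CPM in the injured libraries, on 28 and 22 UMIs. T cell-like cells had it at 81.4 and 17.8 CPM there, on 24 and 5 UMIs. In microglia-like cells AA467197 had 0, 35 and 37 UMIs. In astrocyte-like cells it had 7, 164 and 553 UMIs (0.476, 8.08 and 27.0 CPM), with its highest levels in cluster 14 (51.5 and 122 CPM in the injured libraries) and lower ones in cluster 4 (7.07 and 25.5 CPM). Cluster 14 is led by Tgm1, Iigp1 and Gldn.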
